A study of Mus musculus with 9 samples.

Results

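Mstn (Entrez gene 17700), the gene of myostatin and once named Gdf8, was followed across gastrocnemius, a calf muscle, of 9 mice of 6 genotypes. It is 1 of the 8251 genes that the array names under a single symbol, and 1 of its 12488 probe sets, groups of short probes that together give an intensity, was annotated to it. The gene was singled out with its values in these arrays already known, so its own levels and differences are given as a description with no p-value. RNA of each mouse was hybridised to its own Affymetrix U74Av2 array.

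Wild-type mice (n = 2, both aged 7 weeks, 1 female and 1 male) were of mixed C57Bl/DBA2/129OLA-Ev background, and every other mouse was male, with no strain given in its label. The mdx mice (n = 2, aged 15 and 13 weeks) carry a mutation in Dmd and lack full-length dystrophin, the protein that ties the fibre's inner skeleton to its membrane. The hDMD mouse (n = 1, 11 weeks) carries the full-length human dystrophin gene beside its own. That gene was placed on the mdx mutation in hDMD mdx mice (n = 2, aged 24 and 10 weeks). The mdx utrn-/- mouse (n = 1, 5 weeks) lacks dystrophin and its relative utrophin, and the hDMD mdx utrn-/- mouse (n = 1, 9 weeks) lacks mouse dystrophin and utrophin but carries the human gene. Whether the human gene has the same copy number and site in all its carriers is not given in the sources used here.

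Myostatin is a secreted protein of the TGF-beta family made mainly by skeletal muscle fibres, and it restrains muscle growth. Its precursor is cut by furin and by proteases of the BMP1 and tolloid family. The freed dimer binds activin type II receptors, which with a type I receptor phosphorylate Smad2 and Smad3, and follistatin and other binding proteins block it outside the cell. Animals without it have enlarged muscles, and blocking it has been tried as a treatment in dystrophic muscle.

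The gene lies on mouse chromosome 1, at chr1:53061640-53068079 of GRCm38.p6. Its promoter is shown because the myogenic factors measured on the same arrays bind E-boxes. The window, chr1:53061390-53061689 on the + strand of GRCm38.p6 from RefSeq, runs from 250 bases before the annotated start to 50 after it, with the E-boxes (CANNTG, either strand) and the TATA box (TATAAA, either strand) in capitals.
Mstn: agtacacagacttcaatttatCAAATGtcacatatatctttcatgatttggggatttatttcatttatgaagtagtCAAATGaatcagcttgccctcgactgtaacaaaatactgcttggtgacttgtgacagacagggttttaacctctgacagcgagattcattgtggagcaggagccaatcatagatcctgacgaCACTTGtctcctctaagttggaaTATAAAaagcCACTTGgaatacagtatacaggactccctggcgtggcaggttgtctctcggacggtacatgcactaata
The window held 4 E-boxes, beginning 229, 174, 52 and 19 bases before the start, and the TATA box began 29 bases before it. No 2 of these matches overlap. An E-box stood in 72.1% of the 27025 promoter windows of the same length and the TATA letters in 14.2%. The window held no match to the MEF2 box, which 3.26% of windows held. These matches are letters and not shown sites of binding.

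Deposited intensities of Mstn ran from 12.0 to 839.8, but the arrays differed in brightness. The hybridisation spike-in controls, added in fixed amounts, had medians of 206 to 225 on 3 bright arrays (mdx 2, wild-type 1 and hDMD mdx 1) and of 28.5 to 42.3 on 6 dim ones. Intensities were therefore quantile normalised, which gives every array the same distribution, and are given as log2(value + 16) with a floor of 4. Fold changes on this scale understate those of dim genes. Labelled tissue was borne out by its markers, as Acta1, skeletal actin, lay between 11.73 and 11.89 and none of the 10 muscle identity genes was at the floor in any array. The Dmd probe set lay between 4 and 4.95, near the floor. Of the Utrn probe sets, 1 lay between 4.15 and 4.74 and another between 4.15 and 6.16. Their levels were not compared by genotype, so neither gene serves as a check of the genotypes here.

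Mstn was lowest in muscle without dystrophin, intermediate in wild-type and highest in carriers of the human gene. On the log2(value + 16) scale it was at 6.13 in mdx utrn-/- 1, 6.19 in mdx 2 and 6.67 in mdx 1. It was at 7.16 in wild-type 1 and 7.54 in wild-type 2. In carriers of the human gene it was at 7.73 in hDMD mdx 1, 7.73 in hDMD mdx utrn-/- 1, 8.28 in hDMD mdx 2 and 8.66 in hDMD 1. No array of these 3 sets overlapped with one of another set. Of the 7453 probe sets kept after a filter on dim ones, 1.42% were likewise lower in all 3 arrays without dystrophin than in all 6 with it, and 0.215% had this order of 3 sets without overlap. Nothing is read from these shares, since the gene was chosen on these values.

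**Figure D1:**
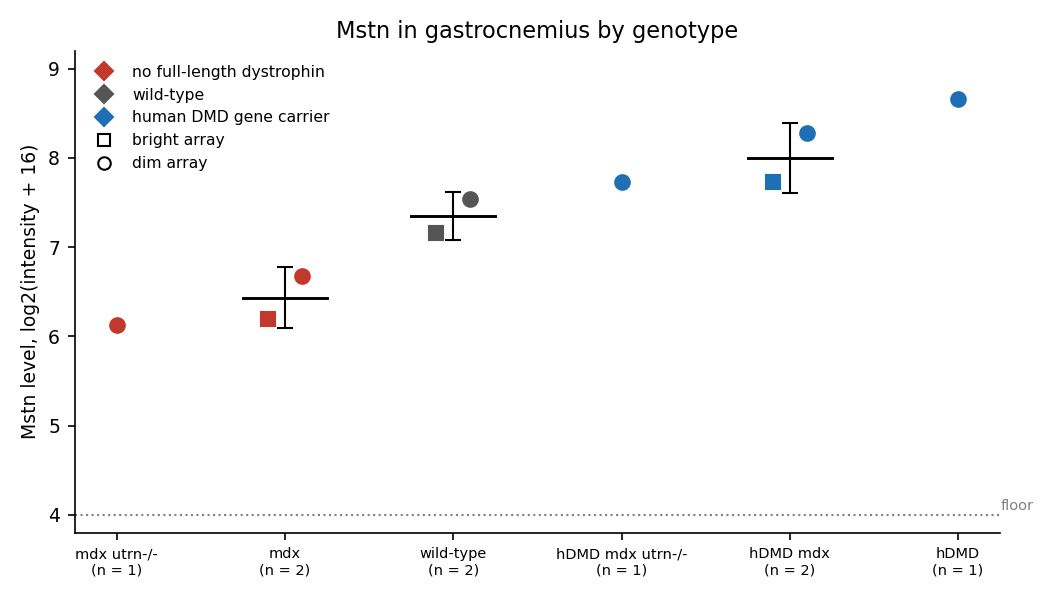
Mstn level, log2(normalised intensity + 16), for each mouse, by genotype in order of the mean. Squares are bright and circles dim arrays, lines and bars are means and SD where a genotype had 2 mice, and the dotted line is the floor of 4. The arrays without dystrophin reach 6.67 at most, and the lowest with it lies at 7.16.

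On the normalised linear scale the same arrays read 53.9, 57.2 and 86.0 without dystrophin, 127 and 170.5 in wild-type, and 196 to 389 with the human gene. Within each array, without any scaling, the probe set was brighter than 77.9% to 84.7% of all 12422 probe sets that are not controls in muscle without dystrophin. It was brighter than 89.5% and 92.1% of them in wild-type and than 93.2% to 97.0% in carriers of the human gene. Quantile normalisation keeps the rank within an array, so these places restate the normalised levels and are no separate measurement.

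Ordered by genotype, the level was 6.13 in mdx utrn-/-, 6.43 ± 0.34 (SD, n = 2) in mdx, 7.35 ± 0.27 (n = 2) in wild-type, 7.73 in hDMD mdx utrn-/-, 8.00 ± 0.39 (n = 2) in hDMD mdx and 8.66 in hDMD. The pooled SD between mice of a genotype was 0.34, from 3 degrees of freedom. The step from mdx to wild-type, 0.92, and that from hDMD mdx to hDMD, 0.66, exceeded the SD of the step (0.34 and 0.41). The steps from mdx utrn-/- to mdx (0.31), wild-type to hDMD mdx utrn-/- (0.38) and hDMD mdx utrn-/- to hDMD mdx (0.27) did not, each with an SD of 0.41. The genotypes with 1 mouse have no spread of their own and were taken to vary like the others.

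Over all arrays the mean was 6.33 ± 0.30 (SD, n = 3) without dystrophin and 7.85 ± 0.54 (n = 6) with it. The difference was -1.52 ± 0.32 (SE), a level 2.87-fold lower on this scale. Of 7453 probe sets, 6 had a lower difference than Mstn in this comparison. Counting by pairs of genotypes, mdx lay below wild-type by a difference of -0.92 ± 0.38 (SE), and 125 probe sets had a lower one. The hDMD mdx mice lay above mdx by 1.57 ± 0.38, or 2.96-fold, and 9 of the 7453 probe sets had a higher difference. These comparisons share the mdx arrays and do not stand as separate evidence.

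Utrophin was missing in 1 mouse without and 1 with dystrophin. Without dystrophin, mdx utrn-/- differed from mdx by -0.31 ± 0.47 (SE from the fit over genotypes). Without utrophin, the mouse with the human gene lay 1.61 ± 0.54 above the one without it, a 3.04-fold difference between 2 mice with no replicate check, close in size to the 1.57 found with utrophin present. The difference between those 2 values was not tested.

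All 4 carriers of the human gene lay above both wild-type mice. Their mean was 8.10 ± 0.46 (SD, n = 4) against 7.35 ± 0.27 in wild-type, a difference of 0.75. By genotype, the hDMD mouse differed from wild-type by 1.31 ± 0.47 (SE), the hDMD mdx mice by 0.65 ± 0.38 and the hDMD mdx utrn-/- mouse by 0.38 ± 0.47. The hDMD mouse, which has mouse and human dystrophin, had the highest Mstn of the 9. When carriage of the human gene was added to the fit, loss of dystrophin went with a difference of -1.02 ± 0.36, against -1.52 without that term. No mouse without dystrophin carries the human gene, so this fit compares the mice without dystrophin with the wild-type mice alone.

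Array brightness moved with the level inside each genotype that had a pair of arrays. The dim array of a pair was above the bright one by 0.48 in mdx, 0.38 in wild-type and 0.55 in hDMD mdx. The wild-type pair also differed in sex and the other pairs in age, so brightness cannot be told apart from these. Only mdx, wild-type and hDMD mdx had an array of each kind, and they stood in the same order in both sets. That order follows from the lack of overlap given above. Among the bright arrays the level ran from 6.19 in mdx 2 over 7.16 in wild-type 1 to 7.73 in hDMD mdx 1. Among the dim arrays it ran from 6.13 in mdx utrn-/- over 6.67 in mdx 1, 7.54 in wild-type 2, 7.73 in hDMD mdx utrn-/- and 8.28 in hDMD mdx 2 to 8.66 in hDMD. Loss of dystrophin went with a difference of -1.25 among bright arrays and of -1.65 among dim ones. That of mdx from wild-type was -0.97 and -0.87, and that of hDMD mdx from mdx was 1.53 and 1.60. Left unnormalised, the deposited values of the sets overlapped, at 4.81 to 6.82 without dystrophin, 6.01 to 7.80 in wild-type and 5.28 to 9.74 with the human gene.

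Ages differed between the genotypes, and the part of age in the Mstn values was not tested. The mice without dystrophin were 5, 13 and 15 weeks old, at 6.13, 6.19 and 6.67. Those with the human gene were 9, 10, 11 and 24 weeks old, at 7.73, 8.28, 8.66 and 7.73. The youngest mouse had the lowest value, and the next lowest came from a mouse of 13 weeks. The oldest mouse, on a bright array, equalled that of 9 weeks, on a dim array, to 2 decimals. With age as a covariate, the difference with loss of dystrophin was -1.51 ± 0.33 (SE), and that of mdx from wild-type was -0.68 ± 0.51. In the second of these, both mdx mice were older than both wild-type mice, so age and genotype cannot be told apart.

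**Figure D2:**
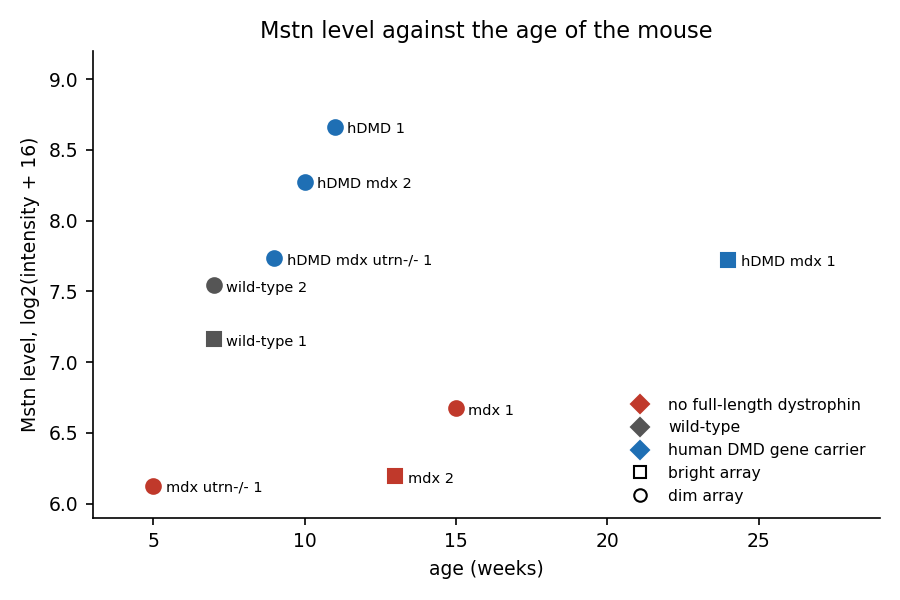
Mstn level, log2(normalised intensity + 16), against age in weeks, with 1 point for each of the 9 mice. Colour marks dystrophin status and shape the array's brightness. Mice without dystrophin lie at 6.13 to 6.67 from 5 to 15 weeks, and carriers of the human gene at 7.73 to 8.66 from 9 to 24 weeks.

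The other genes of the pathway were set beside Mstn. Of 66 other genes of the myostatin pathway listed by role, 52 were on the array under 1 symbol and 40 passed the filter, which uses the mean over all arrays. None of the 40 passed in limma in the comparison by dystrophin, where 0.121% of all probe sets did (9 of 7453, all higher without dystrophin, and 0% lower). At that share, 0 of 40 says nothing particular about the members. At an unadjusted p under 0.05 there were 4 members, all higher, and 5.58% of all probe sets. By sign, 21 were higher and 19 lower, and their median difference was 0.02 against -0.01 over all probe sets. In mdx against wild-type and in hDMD mdx against mdx, 0 of 40 passed in limma, and 0% of all probe sets did in each. At an unadjusted p under 0.05 there were 2 members higher in mdx than wild-type (Igf2 and Hspg2) and 2 lower in hDMD mdx than mdx (Igf2 and Fstl1), beside 1.74% and 2.88% of all probe sets, the names read off after the values were seen.

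Of the other ligands listed, 3 passed the filter. Tgfb3, a TGF-beta isoform, was at 6.60 ± 0.30 (SD, n = 3) without and 6.87 with dystrophin, a difference of -0.27 ± 0.20 (SE), and mdx 1, at 6.93, lay within the range of the arrays with it. Tgfb2, another isoform, differed by -0.31 ± 0.27. Inhba, a subunit of activin A that uses the same type II receptors, differed by 0.25 ± 0.28. Gdf11, the closest relative of myostatin, did not pass the filter. Among the proteases that process the precursor, Furin differed by 0.09 ± 0.22, Bmp1 by -0.33 ± 0.28 and Pcsk6 by -0.29 ± 0.43.

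Of the 6 listed binding proteins, 5 extracellular ones lay higher without dystrophin, and 1 that lies inside the fibre lay lower. Over all probe sets, 51.8% lay lower. The median difference of the 6 was 0.28, opposite in sign to that of Mstn. Fst, follistatin, the best known antagonist of myostatin, was at 4.88 without and 4.35 with dystrophin, a difference of 0.53 ± 0.24 (SE) that did not pass (limma adjusted p 0.887). Its levels lay near the floor of 4. Fstl1, a follistatin-like secreted protein, differed by 0.71 ± 0.44 and Ltbp3, a latency protein that binds the myostatin precursor, by 0.38 ± 0.35.

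By dystrophin class, 3 receptors differed by -0.10 to 0.34 and 7 Smads and their regulators by -0.36 to 0.01, none passing in limma. Acvr2b, the main type II receptor of myostatin, was at 6.36 without and 6.46 with dystrophin, a difference of -0.10 ± 0.32. Its relative Acvr2a also differed by -0.10 ± 0.33, and Acvr1b, a type I receptor, by 0.34 ± 0.54. Of 7 Smads and their regulators, 6 lay lower without dystrophin, the median difference being -0.09. Smad3, a transducer of the signal, differed by -0.36 ± 0.34, Smad7, an inhibitor that the pathway induces, by -0.25 ± 0.38, and Smad4, the shared partner, by -0.13 ± 0.29. In mdx against wild-type, receptors ran from -0.21 to 0.94 and the Smad list from -0.91 to 0.24. In hDMD mdx against mdx they ran from -0.20 to 0.18 and from -0.15 to 0.82. With the human gene in the fit by class, Acvr1b differed by 1.27 ± 0.58, Acvr2a by -0.36 ± 0.42 and Acvr2b by -0.15 ± 0.43. None of these passed in limma.

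Genes of growth and wasting downstream of the pathway had the widest spread. Igf2, a fetal growth factor that is also on the regenerating muscle list, was at 8.72, 9.75 and 10.73 without dystrophin. With it the lowest value was 4, the floor, in hDMD mdx utrn-/-, the median 5.97 and the highest 8.30, in wild-type 1. The difference was 3.60 ± 0.75 (SE; limma adjusted p 0.199), or 1.48 among bright arrays and 4.66 among dim ones. Without wild-type 1 it was the only pathway member to pass, at 3.96 ± 0.58 (limma adjusted p 0.0207). Cdkn1a, the cell cycle inhibitor p21 that myostatin raises in myoblasts, was at 7.82 without and 6.15 with dystrophin, a difference of 1.67 ± 0.56 (limma adjusted p 0.738). Akt2, a kinase of the insulin and IGF pathway, differed by -0.34 ± 0.21. Here 6 of 9 members had higher values and 3 lower, with a median of 0.26.

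The myogenic regulators, among them the factors that bind the E-boxes and the MEF2 box, lay higher without dystrophin for 6 of 9 members, with a median difference of 0.09. Myog, myogenin, was at 6.31 without and 5.37 with dystrophin, a difference of 0.94 ± 0.30 (SE; limma adjusted p 0.667). Myod1 differed by 0.50 ± 0.32 and Mef2c, a MEF2 factor of muscle, by 0.47 ± 0.29. Between the class means, Mstn differed the other way from these 3. The 3 members that lay lower, as Mstn did, were Myf6 (-0.23 ± 0.26), Nr3c1 (-0.13 ± 0.30) and Pax3 (-0.11 ± 0.22). Single arrays did not all follow, as Mef2c was highest in wild-type 1, at 9.30.

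**Figure D3:**
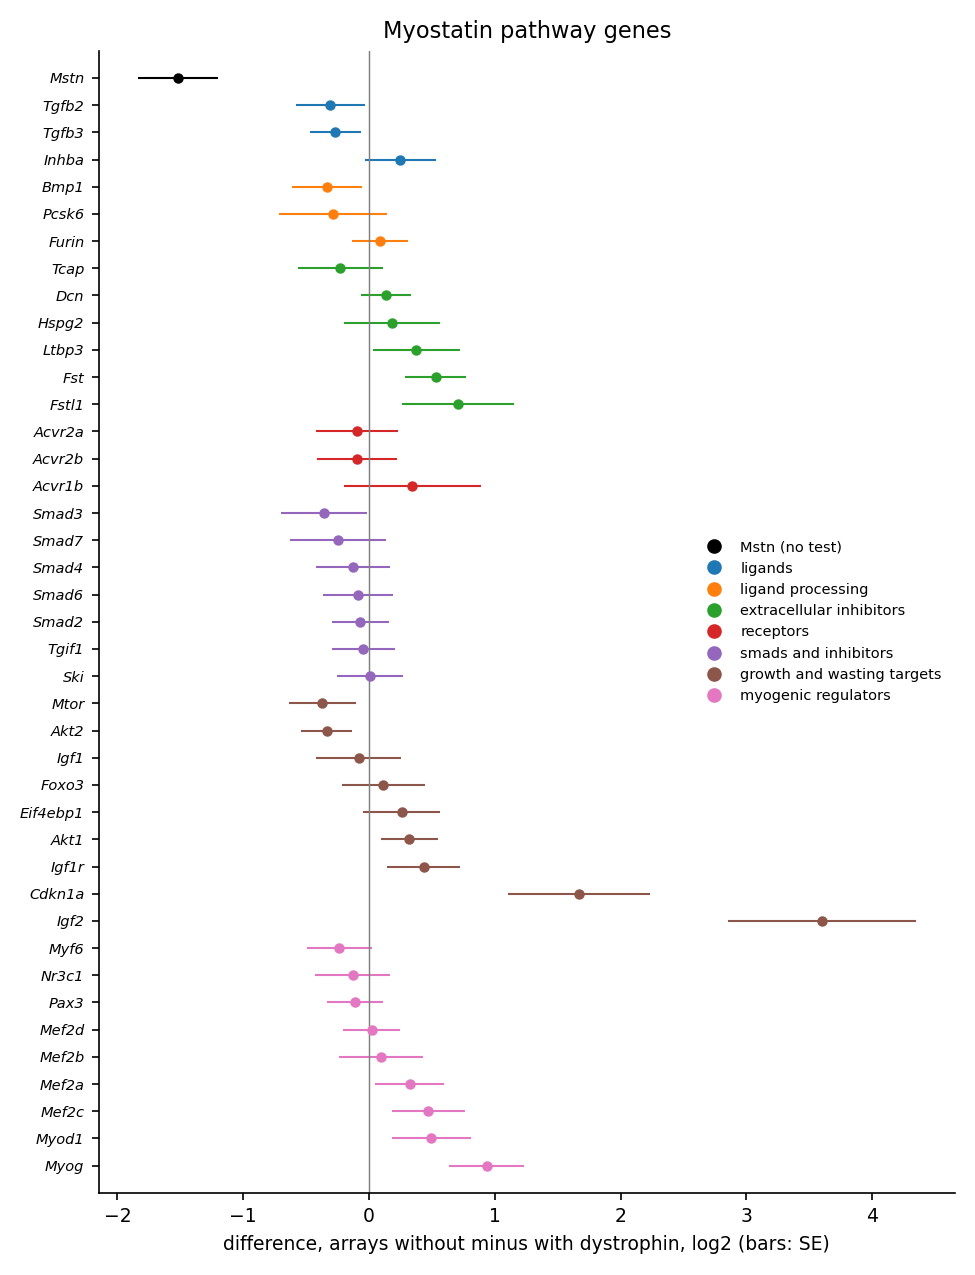
Difference of 40 pathway genes and of Mstn between the 3 arrays without and the 6 with dystrophin, in log2 units with SE bars, coloured by role. Mstn lies at -1.52 and none of the 40 reaches as low, the lowest being -0.37. Mstn was chosen with its values known, and only 6 of 7453 probe sets lie lower, so nothing is read from this gap.

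In whole muscle, fewer fibres that make Mstn and less of its RNA in each fibre cannot be told apart. The genes of the mature fibre give the surrounding values. The 10 muscle identity genes had summed normalised intensities of 18787 to 20764 without and 19272 to 22033 with dystrophin, ranges that overlap. Such genes lie near the top of every array, where quantile normalisation gives all arrays the same values. Their narrow spread is thus partly set by the normalisation, and no fibre content is read from it. The 11 fast glycolytic fibre genes, from the fibres in which Mstn is highest in mouse, had a median difference of -0.10, with 2 higher and 9 lower. Of these Pfkm, muscle phosphofructokinase, differed by -0.40 ± 0.20 (SE), Myoz1, a Z-disc protein of fast fibres, by -0.33 ± 0.20 and Actn3, the fast fibre actinin, by -0.31 ± 0.18. With arrays scaled to the median of bright probe sets instead, the SE were wider. Pfkm then differed by -0.48 ± 0.48, Myoz1 by -0.31 ± 0.48 and Actn3 by -0.48 ± 0.61. The 8 slow fibre genes had a median of -0.09, with Tnni1, the slow troponin I, at 1.07 ± 0.56, Myl3 at -0.75 ± 0.40 and Myl2, slow myosin light chains, at -0.80 ± 0.73. None of these passed in limma. The summed intensity of the slow fibre genes was lowest in wild-type 2, at 761, and in mdx 1, at 838, and between 1879 and 4763 in the other arrays. The sum was 1879 in hDMD mdx 2 and 3492 in hDMD mdx 1. In mdx, wild-type and hDMD mdx alike, the mouse with the lower sum was thus the one with the higher Mstn and the dim array. The part of the slow fibre genes in the Mstn values was not tested.

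Regeneration and macrophage genes lay on the opposite side to Mstn by class. All 12 genes of regenerating muscle lay higher without dystrophin, their median difference being 0.98, while 51.8% of all probe sets lay lower. This list and the macrophage list were chosen with earlier results of these data known. In limma 2 of the 12 passed, where 0.121% of all probe sets were called higher. Myl4, an embryonic myosin light chain, rose by 2.44 ± 0.26 (SE, adjusted p 0.00344 in limma) and Myh3, the embryonic heavy chain, by 2.24 ± 0.30 (adjusted p 0.0203 in limma). Myh3 lost its call without each of hDMD, hDMD mdx 1, hDMD mdx 2, mdx 1 and mdx utrn-/-, with adjusted p values from 0.0517 to 0.119 in limma. It also lost it with a pseudocount of 64 (limma adjusted p 0.0518) or 1 (0.280), with no filter (0.139), with the human gene in the fit (0.426) and in deposited values, where no probe set passed. Myl4 lost its call with a pseudocount of 1 (limma adjusted p 0.0563) and in deposited values. Chrna1, which codes for an acetylcholine receptor subunit, differed by 2.06 ± 0.38 (adjusted p 0.104, and 0.00285 with brightness as a block, in limma). Scores of this list, the median deviation of its members from their means, were 0.51 to 0.70 without dystrophin and -0.54 to -0.10 with it. Their part in the Mstn values was not tested.

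Of 12 macrophage genes, 10 passed the filter, and all 10 lay higher without dystrophin, by a median of 1.04, none passing in limma. Over all probe sets, again, 51.8% lay lower. Their summed intensity was 750 to 1427 without and 166 to 964 with dystrophin. Of the defining markers, Cd68 was above the floor in every array, Lyz2 was at the floor in 1 and Mmp12 in 3 of the 6 arrays with dystrophin. Wild-type 2 had the sum of 964, above 2 of the 3 arrays without dystrophin, and its Mstn level, 7.54, was the higher of the wild-type pair. The 8 fibroblast matrix genes had sums of 1719 to 2483 without and 750 to 3799 with dystrophin, with the highest also in wild-type 2. Adipocyte genes, 7 kept of 10, had sums of 930.1 to 2781 and 761 to 4903.

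**Figure D4:**
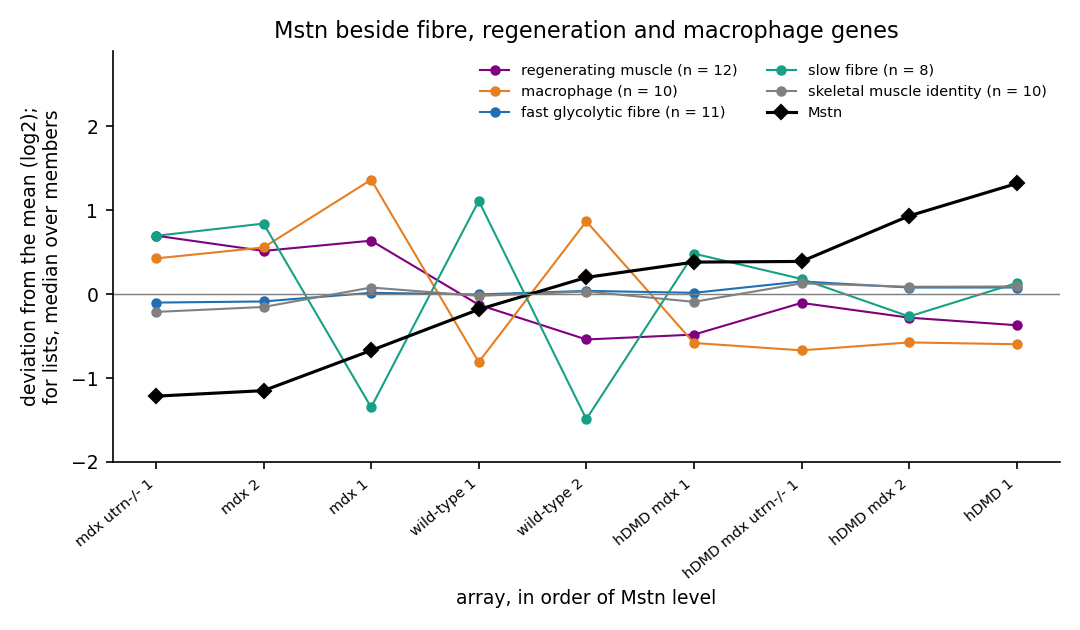
Deviation of Mstn from its mean over 9 arrays (log2, diamonds) beside the median deviation of 5 gene lists, with arrays in order of Mstn level. Scores of regenerating muscle are 0.51 to 0.70 in the first 3 arrays and -0.54 to -0.10 in the others, the macrophage score of wild-type 2 is 0.87, and the muscle identity scores stay between -0.21 and 0.13.

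The genes most like Mstn were sought among 5665 other genes by the Pearson correlation of log2 values over the 9 arrays. The correlations are a description, since all points share their arrays' scaling and class, and with 9 points some of 5665 genes must rank high. Ankzf1, which frees peptides from stalled ribosomes, had r = 0.95 (Spearman 0.95), and Cbfb, the partner subunit of the Runx factors, 0.94 (0.95). Fez2 had 0.94 (0.95), Rangrf, a regulator of the Ran GTPase, 0.94 (0.97), Ppp1cc, a catalytic subunit of protein phosphatase 1, 0.93 (0.93), and Psmc2, an ATPase of the proteasome, 0.93 (0.88). Over the 5665 genes, the median r was 0.01, 12 lay above 0.9 and 6 below -0.9.

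All 6 had smaller differences between the classes than Mstn had. Fez2 ranged from 5.80 to 6.04 without and from 6.37 to 7.15 with dystrophin, a difference of -0.88 ± 0.22 (SE), and its highest value was also in hDMD. Ankzf1 differed by -0.74 ± 0.23, from levels of 4.36 to 4.72 up to levels of 4.98 to 5.69. Psmc2 differed by -0.26 ± 0.19, with 7.37 to 7.63 without and 7.58 to 7.93 with dystrophin, so that its classes overlapped. Without the 2 arrays farthest from the median of Mstn (mdx utrn-/- and mdx 2), the 6 correlations were 0.82 to 0.96. In the 6 dim arrays alone they were 0.92 to 0.98.

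Genes that ran opposite to Mstn were led by Smarcc1, a subunit of the SWI/SNF remodeller, with r = -0.96, and Peg3, an imprinted zinc finger gene, with -0.95. Myadm, a membrane protein, had -0.93, Cbx5, a heterochromatin protein, -0.92, Dhrs7, a dehydrogenase, -0.90, and Nelfe, a subunit of the complex that pauses transcription, -0.90. Smarcc1 was at 5.82 to 6.74 without and 4 to 5.55 with dystrophin, at the floor in hDMD, where Mstn was highest. Peg3 was at 5.81 to 6.83 without and 4 to 5.66 with dystrophin, and at the floor in hDMD and hDMD mdx 2, the arrays with the highest Mstn. Without the same 2 arrays the correlations of these 6 genes were -0.93 to -0.86, again no separate check. Promoter windows were found for all 6 like and 5 of the 6 opposite genes, and 2 and 4 of them held an E-box, none the TATA letters.

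**Figure D5:**
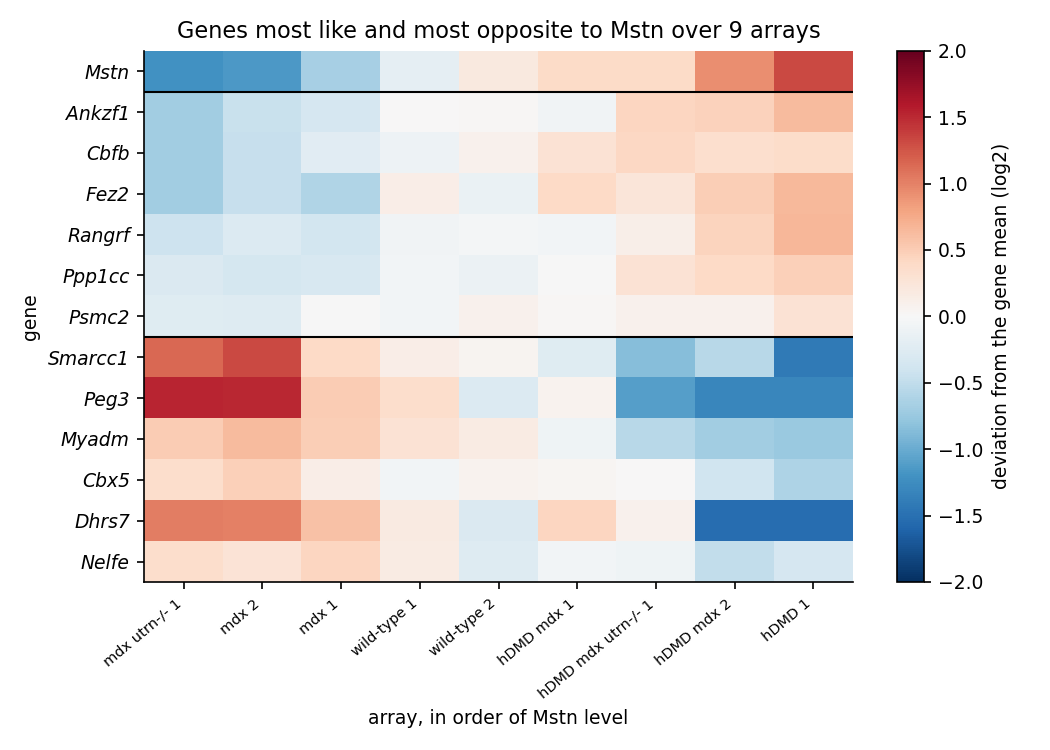
Deviation of Mstn (top row), the 6 genes most like it (middle) and the 6 most opposite (bottom) from each gene's mean over 9 arrays, in log2 units, with arrays in order of Mstn level. The colours of the middle block run from blue to red with Mstn and those of the bottom block the other way, with Peg3 at the floor of 4 in the last 2 arrays.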

How the data were processed

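The authors deposited 1 intensity per probe set and array on a linear scale, 19.4% to 29.9% of them at or below 0. Per the labels' protocols, Trizol and RNeasy RNA was copied with a T7-dT24 primer and biotin-labelled with an Enzo kit. No source used here names the software that made the values or says whether it scaled them. The number of arrays limits the precision.

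After 66 controls were left out, 12422 probe sets were quantile normalised, set to 0 where below it, and taken to log2(value + 16). Probe sets were named through the platform annotation, and symbols were brought up to date by Entrez identifier: 10833 probe sets had 1 symbol, 396 several and 1193 none. Those with a mean above the 40th percentile were kept (7453, for 5666 genes), and a gene was represented by its brightest. Differences and tests were two-sided fits of limma 3.58.1 in R 4.3.3, 1 by dystrophin class (7 residual degrees of freedom) and 1 with a mean per genotype (3), adjusted by Benjamini-Hochberg over 7453 probe sets at a threshold of 0.05.

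Mstn and the gene lists were chosen with earlier results of these data known. Named were, per list, members that passed and the 3 with the smallest p by class, the 6 genes most like Mstn and the 6 most opposite, and markers. A few other list members were named after their values were seen. Each array is 1 mouse. Alternatives were no or median scaling, pseudocounts of 1 and 64, no filter, eBayes with a trend, every probe set, brightness as a block, a term for age or for the human gene, and each mouse left out. The order of scaling, floor and log is as above.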

Additional observations from a re-analysis of the deposited data

Results flagged for a closer look

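In the 6 arrays with dystrophin, 43 genes (Mstn and those named by rule) were searched for an array far from the rest by Dixon's test, which flags about 1 in 20 groups by chance. Mstn had none. Smad4 was at 6.31 in wild-type 2, against 7.39 in the nearest of the other 5 arrays, a gap of 0.828 of the whole range. Cdkn1a was at 4.51 in hDMD mdx 1, the mouse aged 24 weeks, against 6.20 in the nearest array, a gap of 0.732 of the range.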

How the results depend on the processing

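The direction of all 3 Mstn differences was the same under every alternative run. Leaving out the filter, eBayes with a trend and brightness as a block cannot change these differences, so those runs carry no weight here. By dystrophin class the difference was -1.12 with a pseudocount of 64. It was -1.02 with the human gene as a covariate, which leaves only wild-type to compare with. The difference of hDMD mdx from mdx was 1.18 with a pseudocount of 64 and 2.03 in deposited values. There the median of all probe sets moved by 0.51. In the class comparison that median was -0.12 as deposited. Leaving out 1 mouse at a time gave differences of -1.71 to -1.37 by class, -1.17 (without mdx 1) to -0.67 (without mdx 2) for mdx against wild-type and 1.30 to 1.82 for hDMD mdx against mdx. The mean of 1 mouse then stands for its genotype. The count of pathway members passing by class was 0 under every alternative but 1 without wild-type 1, and 0 throughout in the other comparisons. Over all probe sets, 0 to 19 passed by class, 0 as deposited and 19 without wild-type 1. Signs turned for members with small differences: Inhba was -0.018 and Furin -0.085 as deposited, and Smad4 was 0.29 with the human gene as a covariate. With a mouse left out, Acvr2a ranged from -0.37 to 0.051, Acvr2b from -0.35 to 0.15, Inhba from -0.0077 to 0.41 and Myl2 from -1.49 to 0.27. Of the 12 genes most like or opposite to Mstn, 3 remained when values were centred within bright and dim arrays and 5 with Spearman's correlation. Brightness as a block, which pairs the mice of the 3 genotypes with 2, could not move the 3 Mstn differences. Both sides of each comparison have the same share of bright arrays. The SE were then 0.28, 0.23 and 0.23 in place of 0.32, 0.38 and 0.38. The labels give no replicate numbers by which to pair mice. With 9 mice, 3 genotypes of 1 mouse and 1 probe set, mouse and array cannot be told apart within a genotype, and no protein was measured.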
